A study of Homo sapiens with 6 samples.

Results

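The 7 genes described here are ADM, EGLN1, BNIP3, BNIP3L, HK2, TPI1 and LDHB, a set of hypoxia-responsive and glycolytic genes out of 14884 genes that could be named on the arrays. They were chosen by name, with their differences between the 2 groups of this study already known, so those differences are given as a description and without a test. Expression was measured in HK2 cells, an immortalised human line of proximal tubule epithelium from the kidney, grown in medium with serum. The gene HK2, which encodes hexokinase 2, shares its name with the line by coincidence. Control cells were transduced with lentivirus carrying pLKO.1-shGFP, whose hairpin targets a protein that human cells lack, and the other cells with pLKO.1 shPGC-1alpha, directed against the transcriptional coactivator PGC-1alpha. Both groups went through puromycin selection, and RNA was collected 5 days after transduction, with selection ended for 24 hours. Each group had 3 arrays, labelled biological replicates 1 to 3, and whether the cultures were transduced separately is not given. The level of PPARGC1A, which encodes PGC-1alpha, was not analysed here, so the labels were not checked against the shRNA's target, and both groups rest on 1 cell line and 1 named construct each.

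Cells sense oxygen through prolyl hydroxylases, enzymes that need oxygen to mark the alpha subunits of hypoxia-inducible factor (HIF) for destruction through the VHL ubiquitin ligase. When hydroxylation stops, HIF-alpha pairs with ARNT, binds short DNA elements whose core reads ACGTG or GCGTG, and raises transcripts for glucose uptake, glycolysis, vessel growth and the removal of mitochondria. In the kidney the proximal tubule relies heavily on mitochondrial oxidation and makes little use of glycolysis, which is why these genes are studied there. Many of them also respond to signals other than oxygen.

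The arrays gave log2 values from robust multi-array average (RMA), in which a difference of 1 is a doubling. Array medians lay between 5.00 and 5.04 over 53617 probe sets. Arrays correlated at r = 0.988 to 0.992 within groups and at r = 0.982 to 0.987 between groups, so no array stood far apart. Among proximal tubule and kidney epithelial markers, PAX8 was at 11.44 in the control mean, HAVCR1 at 11.97, DPP4 at 10.66, MME at 7.77 and AQP1 at 5.97. LRP2 and CUBN, the endocytic receptors of the differentiated tubule, were on every array below 4.43, a dim level that 20% of named genes do not reach. They were the only 2 markers of this list with a mean that low. ANPEP lay close above that level, at 4.56 in the control mean. Of the 15 such markers measured, 2 were higher and 6 lower with the PGC-1alpha hairpin at a limma adjusted p under 0.05, and the sum of their log2 values ran from 115.6 to 116.9 in controls and from 112.7 to 113.8 in the other group. Over all named genes 9.58% were higher and 12.2% lower at that threshold, against 13.3% and 40% of these markers. KRT19 fell by 1.42, EPCAM by 0.73, MME by 0.61, HAVCR1 by 0.36, KRT18 by 0.31 and DPP4 by 0.27. In contrast, VCAM1 rose by 0.57 and PAX8 by 0.38. Of the 4 measured markers of leukocytes and endothelium, PECAM1 was below 4.43 on every array, and CD14 and VWF were at 4.36 and 4.78 in the control mean. CD68, a lysosomal protein also made outside macrophages, was at 11.15 in the control mean and rose by 0.34. The list's sum ran from 23.7 to 24.3 against 24.2 to 24.6. The part of these shifts in the results below was not tested, and in RNA from whole cultures fewer cells of a kind cannot be told apart from less RNA per cell.

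Of the 7 genes, 6 were higher in cells with the PGC-1alpha hairpin and LDHB was lower. ADM differed most, at 2.11-fold, followed by EGLN1 at 1.58-fold, TPI1 at 1.49-fold, HK2 at 1.35-fold, BNIP3 at 1.25-fold and BNIP3L at 1.21-fold, while LDHB was 1.23-fold lower. For all 7 genes the 3 arrays of one group did not overlap those of the other, as was true of 38.7% of all named genes. Because the genes were chosen on this contrast, that count supports nothing about them. As background for the other genes named here, 21.8% of all named genes passed a limma adjusted p of 0.05 between the groups and 11.4% passed 0.01. Each gene was represented by 1 probe set, and all 7 lay above 4.43 on all 6 arrays. Pooled within-group SDs ran from 0.02 for BNIP3L to 0.16 for TPI1, against a median of 0.11 over all named genes. The differences therefore came with unequal precision: those of ADM and EGLN1 were large against their spread, and that of TPI1 had the largest standard error (SE), 0.11. Each SE given here is limma's moderated value, which draws a gene's variance toward one shared by all genes. It is thus not the gene's own spread alone: BNIP3L had an SE of 0.06 at an SD of 0.02.

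**Figure D1:**
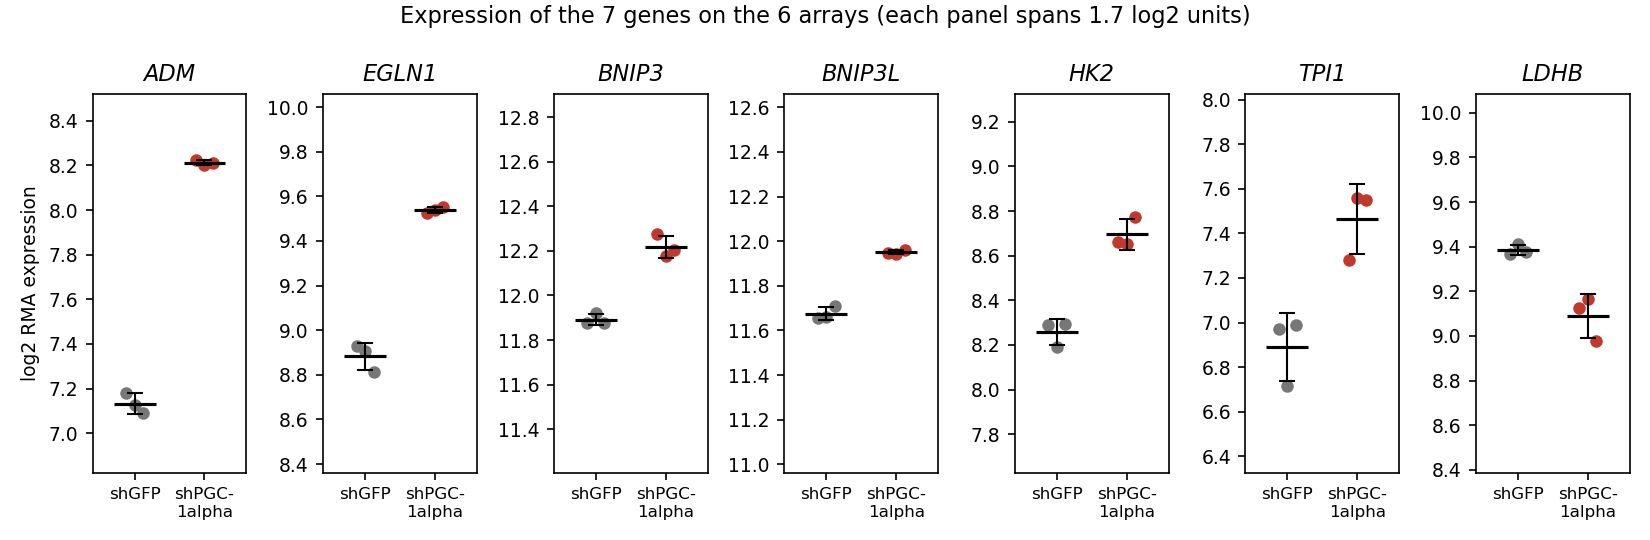
Log2 RMA expression (y axis) of the 7 genes on the 3 shGFP arrays (grey) and the 3 shPGC-1alpha arrays (red), in replicate order from left to right within a group. Bars give the group mean and SD, every panel spans the same number of log2 units, and the groups do not overlap in any panel, with LDHB the only gene whose shPGC-1alpha arrays lie below the controls.

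ADM encodes adrenomedullin, a secreted peptide that widens blood vessels and is induced by low oxygen and by inflammatory signals. Its log2 level was 7.18, 7.13 and 7.09 on shGFP arrays 1 to 3 and 8.23, 8.20 and 8.21 on shPGC-1alpha arrays 1 to 3. The lowest shPGC-1alpha array lay 1.02 log2 units above the highest control, far more than the 0.09 spanned by the controls or the 0.03 spanned by the other group. The log2 difference was 1.08 (SE 0.06), and leaving out any 1 array kept it between 1.06 and 1.10. Of all named genes, 0.632% had a larger increase. The 250 bases before the reference start of ADM are shown because this gene differed most and holds a single hypoxia core there, in capitals, 101 bases before the start (RefSeq, GRCh38.p14, chr11:10304823-10305072, plus strand).
ADM: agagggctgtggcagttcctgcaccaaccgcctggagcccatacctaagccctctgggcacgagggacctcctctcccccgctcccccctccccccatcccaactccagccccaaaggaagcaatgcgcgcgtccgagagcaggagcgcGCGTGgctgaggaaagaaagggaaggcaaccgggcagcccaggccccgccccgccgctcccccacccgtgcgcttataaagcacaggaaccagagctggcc

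The other genes of adrenomedullin signalling did not follow ADM upward. Of 21 measured (24 listed), 1 rose and 5 fell, with a median log2 difference of -0.02, the same as the median over all named genes, -0.02. These are 4.76% and 23.8% of the list, against 9.58% and 12.2% of all named genes. CALCRL, the receptor that binds adrenomedullin together with a RAMP protein, was at 4.89, 5.16 and 4.87 in controls and 4.45, 4.32 and 4.56 with the PGC-1alpha hairpin. It fell by 0.53 (SE 0.10; limma adjusted p 0.0098), and its mean in the second group, 4.44, was close to the dim level of 4.43. Its RAMP partners did not pass: RAMP1 differed by 0.03 (SE 0.09), RAMP3 by 0.03 (SE 0.12) and RAMP2 by -0.35 (SE 0.13; limma adjusted p 0.109, or 0.0265 without shGFP replicate 1, whose 6.25 was the lowest control value). PAM, the enzyme that amidates the mature peptide, was at 9.38 against 9.35, a difference of -0.03 (SE 0.06). MME, the membrane peptidase neprilysin that degrades adrenomedullin, fell by 0.61 (SE 0.07; limma adjusted p 0.0011). It is also 1 of the proximal tubule markers that fell, so the same call is counted in both lists. The related calcitonin receptor CALCR fell by 0.99 (SE 0.09; limma adjusted p 0.00053), to 4.38, 4.39 and 4.65 on the shPGC-1alpha arrays, close to the dim level. CALCA, which encodes calcitonin and its related peptide, fell by 0.61 (SE 0.16; limma adjusted p 0.0343), at means below 4.43 in both groups. The call of CALCA did not survive leaving out any 1 array other than the first control and the second shPGC-1alpha array (limma adjusted p 0.0709 to 0.0982). Of 7 adenylyl cyclases measured, which make the second messenger cyclic AMP, ADCY9 rose by 0.73 (SE 0.07), ADCY6 fell by 0.54 (SE 0.07) and 5 did not pass. ADCY6 has 2 probe sets, and the mean of both gave a smaller difference, -0.26 (limma adjusted p 0.0238).

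EGLN1 encodes PHD2, the prolyl hydroxylase that does most of the oxygen sensing in normal air and is itself a HIF target, which makes it both a brake and a readout of the pathway. Its log2 level was 8.93, 8.91 and 8.81 in the controls and 9.52, 9.54 and 9.55 with the PGC-1alpha hairpin. The nearest arrays of the groups were 0.59 apart, and the shPGC-1alpha arrays spanned 0.03. The log2 difference was 0.66 (SE 0.06), between 0.62 and 0.68 with any 1 array left out. The stretch before its reference start is shown for the single ACGTG that begins 13 bases before the start (RefSeq, GRCh38.p14, chr1:231422288-231422537, minus strand).
EGLN1: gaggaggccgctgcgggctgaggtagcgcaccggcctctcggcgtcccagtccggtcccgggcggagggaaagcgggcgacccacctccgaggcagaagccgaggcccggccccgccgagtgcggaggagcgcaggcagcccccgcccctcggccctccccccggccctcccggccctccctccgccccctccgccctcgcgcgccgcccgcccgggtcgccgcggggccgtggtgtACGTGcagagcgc

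EGLN3, the other prolyl hydroxylase measured and likewise known as a HIF target, did not move with EGLN1. It was at 5.50, 5.84 and 5.76 in controls and 5.82, 5.82 and 5.65 in the other group, a difference of 0.06 (SE 0.10; limma adjusted p 0.738). No core was found in its window. Across the other genes of the oxygen sensing machinery, 16 of 31 listed genes were measured, of which 3 rose (18.8%, against 9.58% of all named genes) and 4 fell (25%, against 12.2%), with a median of -0.04. HIF1A, VHL, EGLN2 and HIF1AN were not analysed here. EPAS1, the HIF-2alpha subunit, went from 10.95, 10.82 and 10.86 to 10.46, 10.56 and 10.68, a log2 difference of -0.31 (SE 0.08; limma adjusted p 0.0297). That call was lost when any 1 array but shPGC-1alpha replicate 3 was omitted (limma adjusted p 0.0609 to 0.0862). It was also lost with all arrays under median centring (0.0655) and over all probe sets (0.109). The partner subunit ARNT did not pass, at 0.03 (SE 0.06), while its relative BMAL1, better known as a clock factor, rose by 0.41 (SE 0.07; limma adjusted p 0.0045). CUL2, the scaffold of the VHL ubiquitin ligase, rose by 0.38 (SE 0.07; limma adjusted p 0.0075). MCM7, a replicative helicase subunit that also binds HIF-1alpha, fell by 0.49 (SE 0.06; limma adjusted p 0.0018).

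Further calls in the machinery were less stable. COMMD1, which competes for HIF-1alpha, rose by 0.33, and was lost without control array 1 or 2 or without array 2 or 3 of the other group (limma adjusted p 0.0693 to 0.0873). SENP1, which removes SUMO from HIF-1alpha, fell by 0.27, and among the omissions of 1 array it survived only that of shPGC-1alpha replicate 1 (otherwise 0.0660 to 0.0823). The call of SENP1 was also lost with median centring (limma adjusted p 0.0509) and over all probe sets (0.106). HIF1A-AS2, an antisense transcript of HIF1A named after its values were seen, fell by 0.51, and was lost without any shPGC-1alpha array (0.0660 to 0.102). The count of genes that fell was thus 1 to 2 with any single array left out, and 1 with median centring.

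Transcripts known to be induced by low oxygen were split but leaned upward. Of 45 measured (67 listed, without the 7 genes), 16 rose (35.6%, against 9.58% of all named genes), 3 fell (6.67%, against 12.2%) and 26 did not pass, with a median log2 difference of 0.14. In mean level, 4 of the 45 were below 4.43. They included CP, counted as a rise, at 3.96 in controls and 4.44 in the other group. With dim genes left out, 16 of 41 rose. The list was drawn up with earlier results of these arrays known and is a description. The 6 with the smallest p included HMOX1, which breaks down heme and answers to oxidants as well as HIF, at 1.12 (SE 0.06), and LOX, which crosslinks collagen, at 1.02 (SE 0.06). They also included the vasoconstrictor EDN1 at 0.89 (SE 0.07), the glycoprotein hormone STC2 and the lipase inhibitor ANGPTL4 at 0.88 each (SE 0.06 and 0.09), and the kinase RIOK3 at 0.79 (SE 0.06). For these 6, limma gave an adjusted p of 7.4e-05 to 0.00076. VEGFA, the vessel growth factor that is a classic HIF target, was at 7.94, 8.02 and 7.95 in controls and 8.48, 8.39 and 8.53 with the PGC-1alpha hairpin, and rose by 0.50 (SE 0.07; limma adjusted p 0.0024).

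Other transcripts regarded as sensitive markers of hypoxia did not rise. NDRG1, a stress protein induced strongly by low oxygen, was at 7.97, 7.81 and 7.80 in controls and 7.39, 7.40 and 7.57 in the other group. It fell by 0.41 (SE 0.08; limma adjusted p 0.0121, or 0.0544 when all probe sets were fitted and adjusted together). MIR210, the precursor of the microRNA most often linked to hypoxia, had means of 7.21 ± 0.04 in controls and 7.12 ± 0.14 in the other group (SD, n = 3), with overlapping arrays. Its difference of -0.09 (SE 0.08) did not pass (limma adjusted p 0.509). The other genes that fell, named after their values were seen, were the mitochondrial kinase AK3, at -0.62 (SE 0.10; limma adjusted p 0.0038), and ANKRD37, at -0.29 (SE 0.07; limma adjusted p 0.0280). ANKRD37 likewise survived only the omission of shPGC-1alpha replicate 1 (otherwise limma adjusted p 0.0687 to 0.0822). CA9, PDK1, SLC2A1 and SLC2A3 were not analysed here.

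BNIP3 and BNIP3L are related outer mitochondrial membrane proteins that tether mitochondria to the autophagy machinery, and both are HIF targets. BNIP3 was at 11.88, 11.92 and 11.88 in controls and 12.27, 12.18 and 12.21 with the PGC-1alpha hairpin, a log2 difference of 0.33 (SE 0.06). BNIP3L was at 11.66, 11.66 and 11.71 against 11.95, 11.94 and 11.96, a difference of 0.28 (SE 0.06). Both differences were small but exceeded the spread, with gaps of 0.25 and 0.23 between the nearest arrays, and 8.48% and 11.1% of all named genes had larger increases. The size for BNIP3L depended on scaling: it was 0.17 after the named genes were quantile normalised again and 0.33 with median centring, and for BNIP3 the same settings gave 0.28 and 0.38. The reference annotation names 46 pseudogenes of BNIP3 and lets it overlap PPP2R2D, and whether its probe set also detects such transcripts was not tested. The stretch before the start of BNIP3 is shown because its capitals, the hypoxia cores on either strand, are clustered: 4 GCGTG and a palindromic CACGTG, which counts as ACGTG on both strands, lie between 143 and 104 bases before the start (RefSeq, GRCh38.p14, chr10:131981924-131982173, minus strand).
BNIP3: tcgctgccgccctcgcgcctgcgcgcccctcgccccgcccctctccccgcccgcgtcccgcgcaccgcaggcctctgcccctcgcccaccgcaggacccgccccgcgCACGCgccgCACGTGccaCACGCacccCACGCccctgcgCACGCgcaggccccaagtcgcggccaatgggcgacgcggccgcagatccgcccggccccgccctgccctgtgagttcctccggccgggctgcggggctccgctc

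The other mitophagy receptors and regulators moved in both directions. Of 41 measured (48 listed), 9 rose (22.0%, against 9.58% of all named genes) and 6 fell (14.6%, against 12.2%), with a median log2 difference of 0.04, and without shGFP replicate 2 or shPGC-1alpha replicate 1 the count that rose was 5. FUNDC1, another mitophagy receptor responsive to hypoxia, was at 7.80, 7.76 and 7.61 in controls and 7.73, 7.79 and 7.83 in the other group, and its difference of 0.06 (SE 0.07) did not pass. PINK1, the kinase that marks damaged mitochondria, did not pass either, at 0.14 (SE 0.09). PHB2, an inner membrane prohibitin that serves as a receptor once the outer membrane is broken, fell from 9.88, 9.89 and 9.86 to 9.15, 9.08 and 9.02, by 0.79 (SE 0.06; limma adjusted p 0.00026). Of 4 cargo receptors that link ubiquitin to autophagosomes, 2 rose, SQSTM1 by 0.50 (SE 0.06; limma adjusted p 0.0012) and OPTN by 0.33 (SE 0.06; limma adjusted p 0.0082). The other two, CALCOCO2 at 0.09 and TAX1BP1 at 0.07, did not pass and were named after their values were seen. ATG7, an enzyme of autophagosome formation, rose by 0.42 (SE 0.08). GABARAPL1, a member of the LC3 family that coats autophagosomes, fell by 0.58 (SE 0.09), and NLRX1, a mitochondrial innate immune receptor, fell by 0.57 (SE 0.11).

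**Figure D2:**
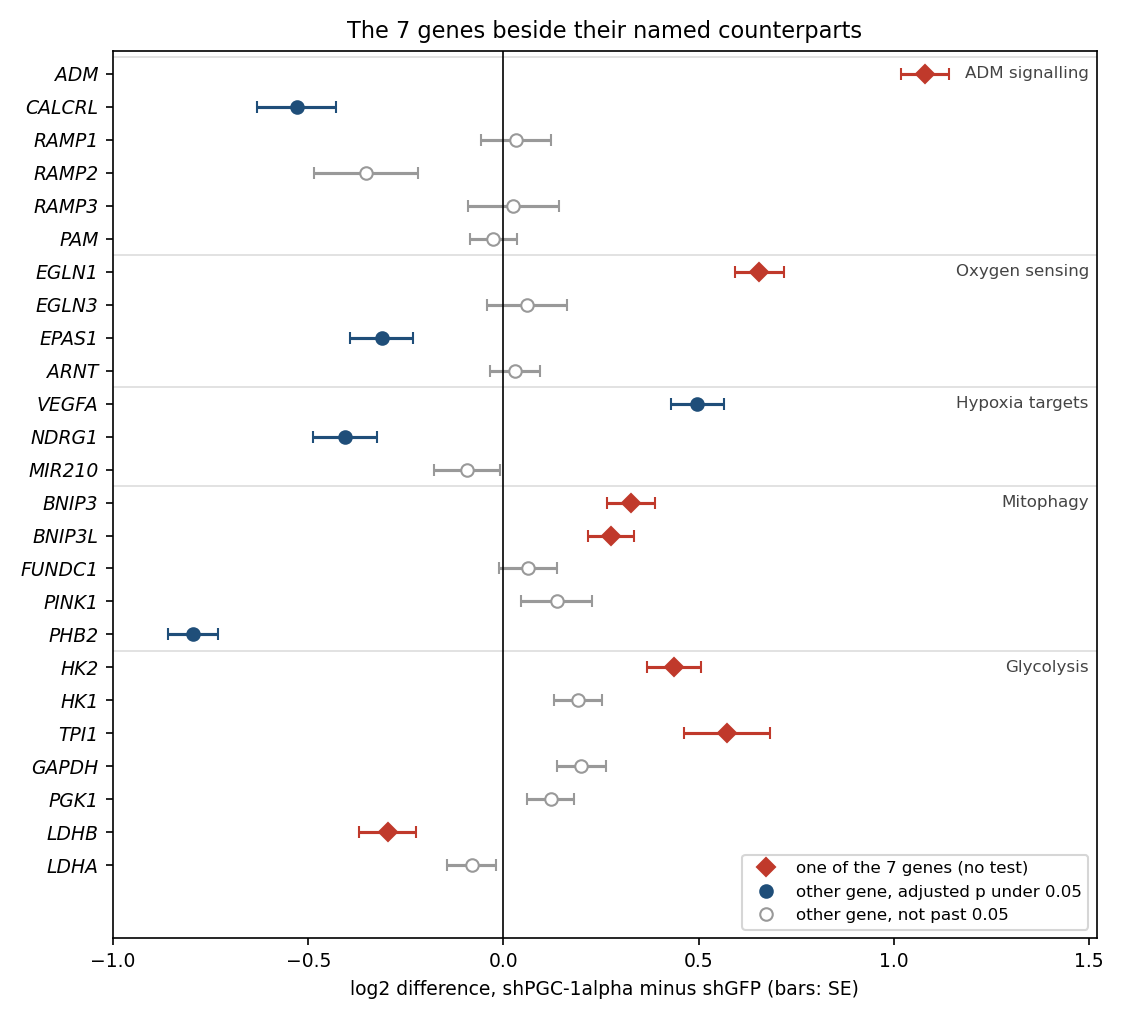
Log2 difference between groups (x axis, shPGC-1alpha minus shGFP; bars give the SE) for the 7 genes (red diamonds, no test) and the named relatives or partners of each (circles, filled where the limma adjusted p was under 0.05). ADM lies at 1.08 while its receptor CALCRL lies at -0.53, and EGLN1 at 0.66 while EGLN3 lies at 0.06.

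HK2 encodes hexokinase 2, the inducible enzyme that traps glucose in the cell at the first step of glycolysis. Its log2 level was 8.29, 8.19 and 8.29 in controls and 8.66, 8.65 and 8.77 with the PGC-1alpha hairpin. The gap between groups was 0.36 and the log2 difference 0.44 (SE 0.07), between 0.40 and 0.46 with any 1 array left out. The constitutive isoenzyme HK1 was at 8.67, 8.69 and 8.62 against 8.88, 8.80 and 8.87, a difference of 0.19 (SE 0.06) that did not pass (limma adjusted p 0.0680). HK1 passed when dim genes were left out (0.0425), with median centring (0.0296) and with an intensity trend in the variance (0.0125). RefSeq gives HK2 a pair of start sites. The stretch before the first is shown for its 3 cores, 2 of them within 55 bases of the start (GRCh38.p14, chr2:74833877-74834126, plus strand).
HK2: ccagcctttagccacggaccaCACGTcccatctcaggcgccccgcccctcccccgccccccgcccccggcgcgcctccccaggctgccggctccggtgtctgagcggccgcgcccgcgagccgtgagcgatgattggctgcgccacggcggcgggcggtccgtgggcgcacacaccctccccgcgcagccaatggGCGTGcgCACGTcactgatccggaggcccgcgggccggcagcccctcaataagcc

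TPI1 encodes triosephosphate isomerase, which interconverts the 3-carbon sugars made when the pathway splits its substrate. It was the most variable of the 7 genes. Its log2 level was 6.97, 6.71 and 6.99 in controls and 7.28, 7.56 and 7.55 in the other group, so shGFP replicate 2 and shPGC-1alpha replicate 1 were each the low array of their group. The gap between groups was 0.30, about as wide as the range within each group, 0.27 and 0.28. The log2 difference was 0.57 (SE 0.11), and it was 0.48 without shGFP replicate 2 and 0.66 without shPGC-1alpha replicate 1. The annotation names 4 pseudogenes of TPI1 and lets it overlap SPSB2, and whether the probe set detects these was not tested. Its first reference window holds no core and its second holds 2.

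LDHB encodes the lactate dehydrogenase subunit that favours the conversion of lactate to pyruvate and predominates in oxidative tissue. It was at 9.37, 9.41 and 9.38 in controls and 9.12, 9.16 and 8.98 with the PGC-1alpha hairpin. The controls spanned 0.04 and the other group 0.19, with shPGC-1alpha replicate 3 the lowest array. The log2 difference was -0.30 (SE 0.07), between -0.33 and -0.24 with any 1 array left out, and 12.6% of all named genes had a larger decrease. LDHA, the subunit that favours lactate production and is induced by HIF, was at 8.51, 8.54 and 8.53 against 8.49, 8.47 and 8.38, a difference of -0.08 (SE 0.06; limma adjusted p 0.426). The stretch before the start of LDHB is shown because it has no core in capitals. The same holds before the first start of TPI1, a gene that was higher. The second start of TPI1 has cores 17 and 68 bases before it, and BNIP3L had no window. Whether a missing core goes with the direction of the difference was not tested. The only core of the LDHB window lies 27 bases after the start (RefSeq, GRCh38.p14, chr12:21657843-21658092, minus strand).
LDHB: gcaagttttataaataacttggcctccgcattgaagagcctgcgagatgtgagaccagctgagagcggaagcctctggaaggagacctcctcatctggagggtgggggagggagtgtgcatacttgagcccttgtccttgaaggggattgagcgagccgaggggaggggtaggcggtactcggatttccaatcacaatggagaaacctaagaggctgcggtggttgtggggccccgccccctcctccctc

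The remaining measured genes of glucose uptake, glycolysis and pyruvate use gave 2 calls. Of 25 measured (60 listed), 1 rose and 1 fell, 4% each way against 9.58% and 12.2% of all named genes, with a median log2 difference of 0.01. None of the 25 was a glucose transporter, phosphofructokinase, aldolase, enolase or pyruvate kinase, so the counts do not cover those steps. In mean level, 4 of the 25 were below 4.43. TIGAR, a phosphatase that slows glycolysis, rose by 0.35 (SE 0.10; limma adjusted p 0.0456), and survived only the omission of shGFP replicate 3 (otherwise 0.0842 to 0.140). EMB, a chaperone of lactate transporters, fell by 0.43 (SE 0.11; limma adjusted p 0.0276), and survived only the omission of shGFP replicate 1 (otherwise 0.0539 to 0.0849). The later enzymes GAPDH and PGK1 differed by 0.20 (SE 0.06; limma adjusted p 0.0607) and 0.12 (SE 0.06; limma adjusted p 0.213). GAPDH was at 8.93, 8.93 and 8.83 against 9.11, 9.09 and 9.09. It passed without the dim genes (0.0374), with median centring (0.0271) and with an intensity trend (0.0083), and PGK1 passed with the trend alone of these (0.0452). The counts were 3 higher and 2 lower without the dim genes, 3 and 1 with median centring, and 4 and 2 with the trend. ENO1, PKM, PFKFB3, PFKFB4, SLC16A1 and SLC16A3 were not analysed here.

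**Figure D3:**
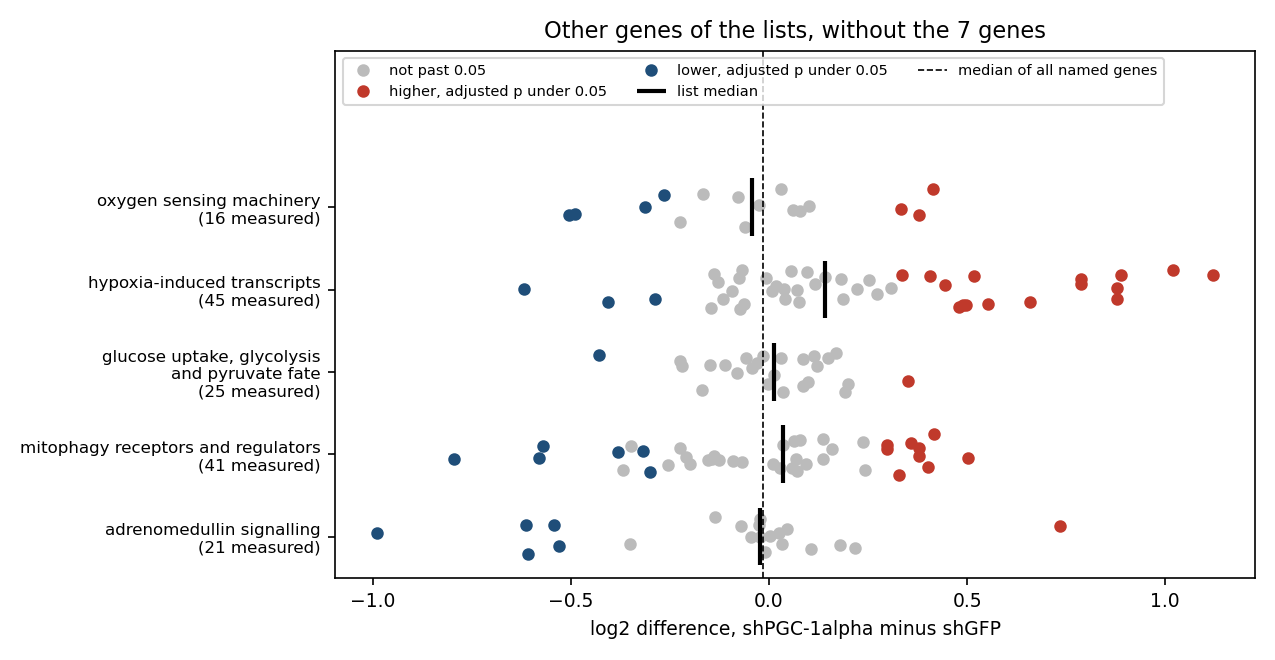
Log2 difference between groups (x axis) of every measured gene in the 5 lists, without the 7 genes. Points are genes, coloured where the limma adjusted p was under 0.05, thick bars are list medians and the dashed line is the median over all named genes, -0.02. The list of hypoxia-induced transcripts has its median at 0.14 and 16 genes called higher, whereas that of glucose uptake, glycolysis and pyruvate fate has 1 called each way.

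Of the 7 genes, 6 had a promoter window in the RefSeq table, each window running from 250 bases before to 50 after a start, with 8 windows in all because HK2 and TPI1 have 2 each. Both strands were searched for the hypoxia cores, ACGTG or GCGTG. The palindrome CACGTG was also sought, and it overlaps the first core. A further motif, AAGGTCA, is the core of the element bound by estrogen-related receptors, the nuclear receptors through which PGC-1alpha acts on many metabolic genes. An ACGTG or GCGTG was present in 7 of the 8 windows, but cores are common: 48.4% of all 35116 windows held one, and 64.5% of the 17379 windows with at least 59% GC, the lowest GC content among the 8. The BNIP3 window and the second HK2 window held 6 matches each, a CACGTG counting as 2, and 0.923% of all windows held 6 or more (1.69% of those with at least 59% GC). Their GC content was 80.7% and 71.7%, so neither share comes from windows matched to them in GC. CACGTG occurred at 1 place in the BNIP3 window and at 2 in the second HK2 window, against 7.26% of all windows with any. AAGGTCA was present in the first TPI1 window, 8 bases after the start on the opposite strand, and 3.92% of all windows held it. Windows of some further genes, picked by name and not by a rule, were searched for comparison. ADM, at a log2 difference of 1.08, had 1 core, and the first window of LDHA, at -0.08, had 6. In turn the first window of LOX, at 1.02, had 4, and that of EGLN3, at 0.06, had 0. PGK1, at 0.12, had 4 cores, GAPDH, at 0.20, had 2, and GPI, at -0.06, had 1. No window of HK1, at 0.19, had more than 1. Whether the number of cores goes with the differences was not tested.

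**Figure D4:**
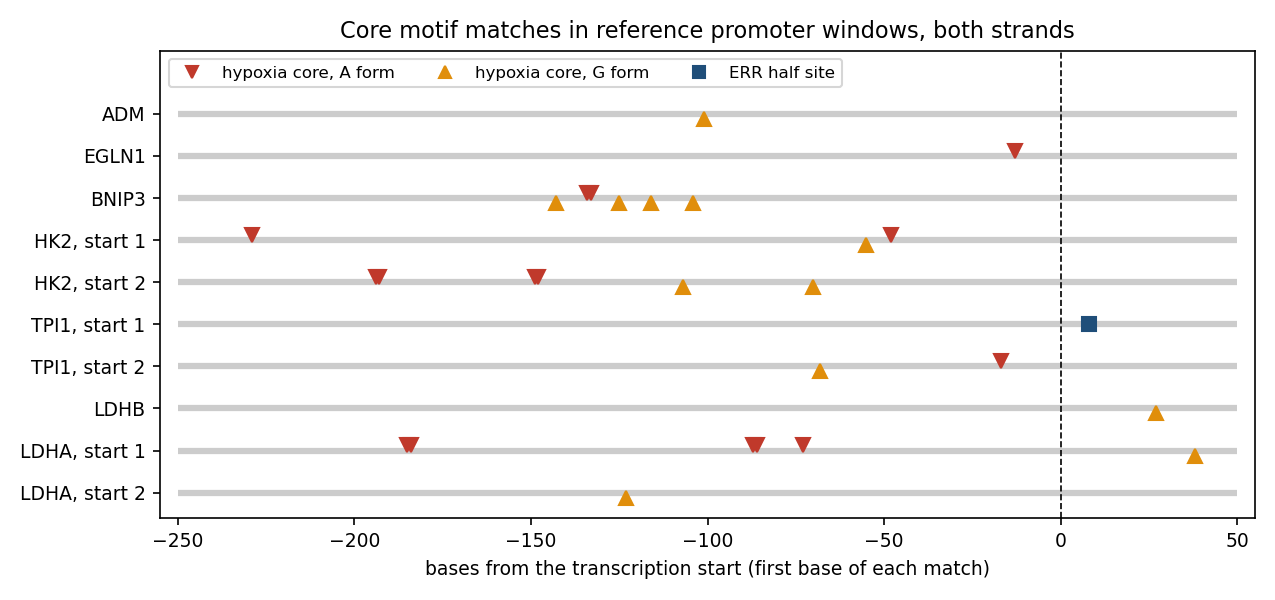
Positions of core matches on either strand in the reference promoter windows of 6 of the 7 genes and of LDHA (x axis, bases from the transcription start to the first base of a match; the dashed line is the start). Matches cluster in the windows of BNIP3, the second start of HK2 and the first start of LDHA, while ADM and EGLN1 have 1 each and LDHB has 1 after its start.

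The genes whose profiles over the 6 arrays lay nearest to each of the 7 were found by the root-mean-square distance between profiles centred on their own means, in log2 units. With 6 arrays in 2 groups this mostly finds genes with a like group difference, so it is a description. Nearest to ADM were the interferon-gamma receptor subunit IFNGR2 (distance 0.035, group difference 1.05) and HMOX1 (0.037 and 1.12). Nearest to EGLN1 were ILDR2 and the inositol phosphate kinase IPMK, and nearest to BNIP3 were LIMS3 and the secretory carrier SCAMP3. BNIP3L had the closest neighbour of all, COX7A2L, a factor in respiratory supercomplex assembly, at a distance of 0.0085 and a group difference of 0.28, followed by the mitochondrial glycerol-3-phosphate dehydrogenase GPD2. HK2 lay nearest to the Golgi exchange factor GBF1 and to the sorting nexin SNX24, and LDHB to the RNA-processing genes PAPOLA and HNRNPU, at differences of -0.30 and -0.27. TPI1 had the most distant neighbours, GSTO1 at 0.072 and DRD1 at 0.079.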

How the data were processed

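Total RNA was labelled with biotin and hybridised to 6 arrays, 3 per group. The deposited values are log2 expression values, 1 column per array, made by the authors with RMA and Affymetrix Expression Console, per the submitters' processing notes. The sources used here give no versions, scan dates or batches. RMA makes array distributions alike, and its values carry no counts, so the number of arrays limits the precision.

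Probe sets were named through the platform's annotation: 16098 of 53617 had 1 symbol and 37519 none. The highest-mean probe set stood for each of 14884 genes. All genes were fitted with limma 3.58.1 in R 4.3.3 (lmFit, eBayes, no block, no filter), two-sided, with Benjamini-Hochberg adjustment over all named genes and a threshold of 0.05. The fit was tested on simulated data. An exact permutation test of 3 against 3 cannot go below 0.1. All p-values reflect only how far these samples spread, which may be technical.

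The 7 genes and the lists were chosen with earlier results of these data known. The text names the 7 genes, up to 6 genes per list with the smallest p past the threshold, fixed counterparts where measured, and the 2 nearest protein-coding genes with a settled name for each of the 7. Any other gene was named after its values were seen. Alternatives were each array left out, a replicate block, 2 other scalings, a filter on dim genes, the mean of probe sets, an intensity trend, all probe sets and a threshold of 0.01.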

Additional observations from a re-analysis of the deposited data

How the results depend on the processing

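For the 7 genes, each with 1 probe set, leaving out an array or rescaling can move the difference, and the other settings cannot. With 1 array left out, none moved by more than the SD within groups. With median centring, which raised the median difference of all genes by 0.05, ADM was at 1.13, EGLN1 at 0.71, BNIP3 at 0.38 and BNIP3L at 0.33, and after quantile normalization BNIP3 and BNIP3L were at 0.28 and 0.17. Over all named genes, 1426 were higher and 1817 lower. Median centring gave 1867 and 1440, so the share of calls that were higher went from 44.0% to 56.5%. Fitting and adjusting over all probe sets gave 767 and 970, and a threshold of 0.01 gave 758 and 942.

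In the lists, the oxygen sensing genes that fell numbered 1 with median centring, over all probe sets, at 0.01 and with the replicate block, against 4. Hypoxia-induced transcripts that fell numbered 1 over all probe sets and at 0.01, against 3. Mitophagy genes numbered 3 higher and 3 lower over all probe sets and 3 and 2 at 0.01, against 9 and 6. Glycolytic genes numbered 0 each way with the replicate block, over all probe sets and at 0.01, 3 higher and 2 lower without dim genes, 3 higher with median centring, 2 lower after quantile normalization, and 4 higher and 2 lower with an intensity trend, against 1 each way. Adrenomedullin signalling genes that rose numbered 2 with median centring, against 1. Some settings bring another number of genes or probe sets into the fit, or a stricter threshold. Which part moved the counts was not tested.

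With 1 array left out, 1011 to 1170 genes were higher and 1301 to 1502 lower. The counts higher and lower were 2 to 3 and 1 to 2 for oxygen sensing, 15 to 16 and 2 to 3 for hypoxia-induced transcripts, 0 to 1 and 0 to 1 for glycolysis, 5 to 7 and 5 to 7 for mitophagy, and 1 and 4 to 6 for adrenomedullin signalling. Same-numbered arrays deviated together only weakly, at r = 0.117, 0.0874 and 0.0230. Control array 3 correlated better with shPGC-1alpha replicate 2 (r = 0.0573), while every other array correlated best with its own number. With so few arrays these values cannot settle whether the replicate numbers pair the samples. A fit with the replicate block called 1221 genes higher and 1552 lower. Among the genes named by the rule, the block ended the calls of EPAS1 (limma adjusted p 0.0658), SENP1 (0.0519), EMB (0.0647) and TIGAR (0.0806).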
